A study of Mus musculus with 4 samples.

Results

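The genes described here are the voltage-gated potassium channel pore subunits of the mouse hypothalamus, chosen by gene symbol as the numbered members of the Kcna, Kcnb, Kcnc, Kcnd, Kcnh and Kcnq families. The rule found 30 of the 32285 genes in the deposited matrices: 8 Kcna, 2 Kcnb, 4 Kcnc, 3 Kcnd, 8 Kcnh and 5 Kcnq genes. Single-nucleus RNA was counted in whole hypothalamus of adult male mice on a C57/BL6NCr background, either wild type (WT) or heterozygous for a mutated thyroid hormone receptor α1 with low affinity for its hormone (TRα1+m), which every cell of the animal carries. Each genotype had 2 libraries, 1 from each of 2 experimental repeats, and each library pooled the nuclei of 3 mice, so the library and not the mouse or the nucleus is the replicate. The comparison asks which channel genes differ when thyroid hormone signaling through this receptor is impaired, and in which cell types.

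Voltage-gated potassium channels open when the membrane depolarizes and let potassium leave the cell, which ends action potentials and sets how readily a neuron fires again. The subunits assemble as tetramers around a shared pore. Kcna genes encode the Kv1 subunits, known from axons, where they cluster beside the nodes of Ranvier under the myelin sheath that oligodendrocytes form. Kcnb genes encode the slow delayed rectifiers of the soma, Kcnc genes the fast channels of rapidly firing neurons, Kcnd genes the rapidly inactivating A-type channels, Kcnq genes the M-type channels that neuromodulators close, and Kcnh genes the ether-a-go-go family.

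All 30 subunits share the selectivity filter, a stretch of 5 codons that lines the narrowest part of the pore and lets potassium pass in preference to sodium. A search of translated coding sequences for the potassium channel signature found it once in each of the 30 members and in 158 of 21754 protein-coding genes (0.726%). The runs below, from GENCODE vM21 on GRCm38, are shown for the subunits on which the results turn, 5′ to 3′ on the coding strand, with the 15 bases of the filter in capitals.
Kcna1: tccatgaccACTGTGGGATACGGTgacatg
Kcna2: tccatgacaACTGTAGGCTATGGAgacatg
Kcna6: acaatgaccACGGTAGGTTATGGGgacatg
Kcnc2: accatgactACCTTAGGTTACGGGgatatg
Kcnd2: accatgacaACACTGGGGTATGGCgacatg
Kcnq3: acactggccACCATTGGTTATGGAgacaag
Kcnh8: agcctcacaAGCGTTGGGTTTGGGaatgtg

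The Kcna1 run lies at chr6:126642222-126642251 on the minus strand, in exon 2, and the Kcna6 run at chr6:126738641-126738670 on the same strand, in exon 1. The genes Kcna1 and Kcna6 are separated by 61.9 kb, yet their runs matched at 23 of 30 bases. Kcna1 matched Kcna2, at chr3:107105215-107105244, at 25 bases and Kcnb2, of another family, at 27. It matched Kcnq3, at chr15:66023725-66023754 on the minus strand, at 19 and Kcnh8, at chr17:52877982-52878011, at 15. The run of Kcnc2 is at chr10:112456220-112456249, and that of Kcnd2 is split by the intron between exons 1 and 2. The gene models differ as much as the families do: 7 Kcna genes have their whole coding sequence in 1 exon, and gene spans run from 1.90 kb for Kcna3 to 564 kb for Kcnq5.

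The libraries held 51877331 and 59112785 UMIs (WT, repeats 1 and 2) and 55366391 and 47260127 UMIs (TRα1+m, repeats 1 and 2) in 11976 to 16435 annotated nuclei each, where a UMI is 1 counted molecule. Cell type names are the deposited annotation. Oligodendrocyte markers, summed over 5 genes, reached 7393 to 21360 CPM (UMIs of a gene as a fraction of its cluster total, scaled to 1000000) in oligodendrocytes against 845 to 1391 in their progenitors (OPCs), and both genotypes had more of them in the second repeat. Among neuronal sub-clusters, the one labelled Orexin+ had 69.6 CPM of Hcrt, the orexin gene, against 827 in Glutamatergic Neurons_2, so the label is used here only as a name. It held 36 and 80 nuclei in WT and 61 and 50 in TRα1+m. The sub-cluster labelled MCH held the endothelial genes Flt1 (742 CPM) and Cldn5 (381 CPM) beside its Pmch. Between 44 and 64 cell barcodes were shared by any pair of libraries.

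Of the 30 members, 28 passed the filter on low counts in at least 1 of the 5 main clusters tested: the main neuronal cluster (Neurons_1) kept 28, astrocytes 23, oligodendrocytes and OPCs 20 each, and microglia and macrophages 16. Kcna7 had 0 UMIs and Kcna10 had 21 in the whole data set. Levels below are CPM of the cluster's own UMIs, as mean ± SD over the 4 libraries, and describe each gene across cell types with no test. The library counts include unspliced RNA, and long genes hold more of it, so levels are compared between cell types and not between genes.

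The subunits differed in the cell type of their highest level. Neurons_1 had the highest mean for 15 members, OPCs for 6, oligodendrocytes for 4, microglia and macrophages for 3 and astrocytes for 1 (the remaining member, Kcna7, had no UMI). This ranking set no floor on counts, ignored overlap of libraries and has no share over all genes beside it. The 3 of microglia and macrophages were Kcna3, Kcna5 and Kcnd1, from 2, 15 and 40 UMIs there, and the 15 of Neurons_1 include Kcna10. The neuronal members included Kcnb2 (1045 ± 18.9 CPM in Neurons_1 against 54.7 ± 1.18 in oligodendrocytes), Kcnc2 (513 ± 38.1 against 37.0 ± 8.81), Kcnh7 (699 ± 21.3 against 52.9 ± 9.85) and Kcnq5 (716 ± 27.9 against 50.3 ± 10.2). In these examples the 4 neuronal libraries lay above the 4 oligodendrocyte libraries without overlap. With at least 20 UMIs over both clusters, 20 of 29 members were higher in Neurons_1 than in oligodendrocytes in this sense (33.6% of all such genes), 21 than in astrocytes (26.5%), 21 than in microglia and macrophages (24.8%) and 13 than in OPCs (28.3%).

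**Figure D1:**
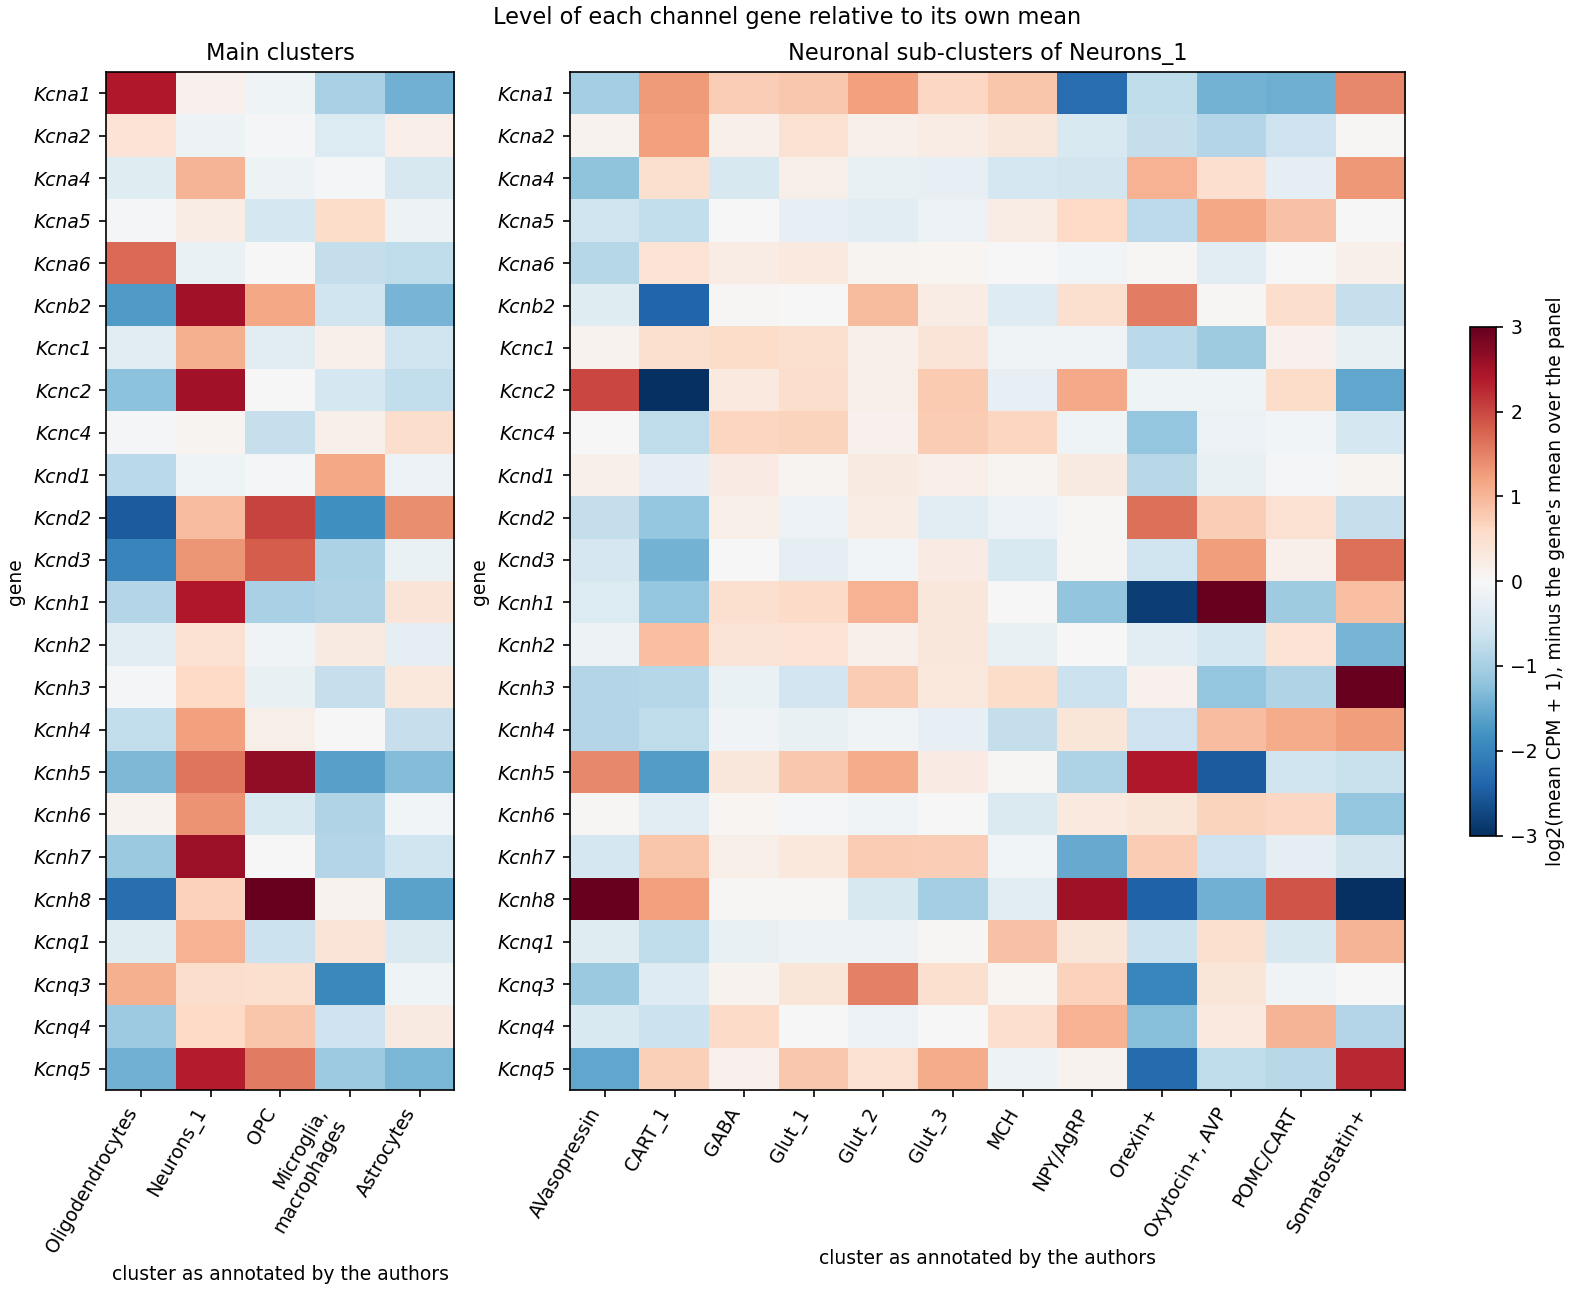
Level of 24 channel genes with at least 100 UMIs in the 5 main clusters (left) and in the 12 neuronal sub-clusters tested (right), as log2(mean CPM + 1) minus the mean of that gene over the panel. Rows are genes and columns are clusters. Red is above and blue below the gene's own mean, and the color scale stops at 3 in both directions, so that Kcna1 and Kcna6 stand out in oligodendrocytes and Kcnh8 in OPCs.

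Oligodendrocytes led for 2 neighboring Kv1 genes. Kcna6 had 128 and 198 CPM in WT and 166 and 271 CPM in TRα1+m oligodendrocytes, against 41.0 to 60.1 CPM in Neurons_1 and 44.3 to 75.3 CPM in OPCs. All 4 oligodendrocyte libraries exceeded every library of the other 4 main clusters tested. Kcnq3, an M-type subunit, had 846 ± 47.1 CPM in oligodendrocytes, 580 ± 13.2 in Neurons_1, 561 ± 44.0 in OPCs, 372 ± 80.7 in astrocytes and 106 ± 34.0 in microglia and macrophages. Its oligodendrocyte libraries (819 to 917 CPM) stood apart from those of Neurons_1 (563 to 593 CPM), whereas Neurons_1 and OPCs overlapped. Kcna2, which pairs with Kcna1 in axons, ranged less over the main clusters (25.5 ± 6.49 to 45.3 ± 6.88 CPM), and all neighbors in its order overlapped. Kcna1, Kcna6 and Kcnq3 were the 3 members higher in oligodendrocytes than in Neurons_1 without overlap (19.4% of all genes). With equal numbers of nuclei Kcna2 joined them, and 19 members in place of 20 were higher in Neurons_1.

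Kcnd2 and Kcnd3, of the A-type genes, and Kcnh5 and Kcnh8, of the ether-a-go-go genes, led in progenitors. Kcnd2 had 4917, 5020, 4876 and 4594 CPM in OPCs (WT repeats 1 and 2, then TRα1+m repeats 1 and 2), 3143 ± 211 CPM in astrocytes, 2248 ± 177 in Neurons_1, 332 ± 93.0 in microglia and macrophages and 209 ± 40.0 in oligodendrocytes. No neighbors in this order overlapped, so OPCs and oligodendrocytes, cells of 1 lineage, were the highest and the lowest. The margin at the low end was narrow. The lowest library of microglia and macrophages had 251 CPM and the highest of oligodendrocytes 244 CPM. The part of free neuronal RNA, described below, in these low levels was not tested. Kcnd3 followed with 220 ± 19.8 CPM in OPCs, 156 ± 12.2 in Neurons_1 and 15.1 ± 5.55 in oligodendrocytes. Kcnh8 had 318 ± 43.2 CPM in OPCs, 60.9 ± 11.8 in Neurons_1 and 7.01 ± 2.84 in oligodendrocytes. Kcnh5 had 197 ± 21.6 CPM in OPCs and 94.6 ± 4.63 in Neurons_1. These 4 genes were the members higher in OPCs than in Neurons_1 without overlap (13.8% of all genes).

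In the other glia 1 member each was higher than in Neurons_1 without overlap: Kcnd2 in astrocytes (25.0% of all genes) and Kcnd1 in microglia and macrophages (26.2%). Kcnd1 rested on 40 UMIs there, at 7.83, 16.3, 9.13 and 22.7 CPM, and overlapped Neurons_1 when the clusters were cut to equal numbers of nuclei or totals were scaled by TMM. Within the astrocyte cluster, Kcnd2 had 3506 to 4091 CPM in the astrocyte sub-cluster and 205 to 361 CPM in tanycytes, the cells that line the third ventricle. Kcnh1 had the opposite order, 91.7 ± 27.8 CPM in tanycytes and 8.48 ± 2.53 CPM in the astrocyte sub-cluster, as did Kcnh8, with 43.3 ± 5.96 and 4.85 ± 1.25 CPM. None of these ranges overlapped.

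Neuronal RNA was present in glial clusters. The 6 neuronal markers had between 8.06% (Grin2b) and 186% (Nefl) of their Neurons_1 level in oligodendrocytes, with a median of 32.2%. On these means Kcna1, at 502%, and Kcna6, at 382%, exceeded all 6. Over single libraries Kcna6 had 312% to 477% and Kcna1 168% to 799%, and both TRα1+m libraries of Kcna1 lay within the 130% to 254% of Nefl. Kcnq3, at 146%, and Kcna2, at 147%, lay within the markers' range, below Nefl and above the next marker, Stmn2 (98.3%). In OPCs the markers reached 112% on the means (162% for Nefl in 1 library), and this mean was exceeded by 7 members, among them Kcnh8 (522%), Kcnd2 (216%), Kcnh5 (208%) and Kcnd3 (141%). In astrocytes, where the markers reached 175%, no member exceeded them. Nefl alone set that bound, and the next marker, Stmn2, was at 83.9%. Kcnd2 (140%), Kcnc4 (139%) and Kcna2 (127%) were the 3 members above 100%. The part of free neuronal RNA in the remaining glial levels was not tested.

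Among the 12 neuronal sub-clusters the subunits differed in where they peaked. The somatostatin sub-cluster had the highest mean for 8 members, CART Neurons_1 for 5, Orexin+ for 4 and Oxytocin+, AVP for 3. No floor on counts was set here either, overlap of libraries was ignored, and the ranking has no share over all genes beside it. The 4 of Orexin+ include Kcna3. The 8 of somatostatin neurons, a sub-cluster of 71 to 119 nuclei per library, include the low-count genes Kcnh3, Kcnh4 and Kcnq1. Kcnh1 had 610, 660, 650 and 752 CPM in the oxytocin and vasopressin neurons, in the library order used above, and 135 CPM on average in the next sub-cluster, Glutamatergic Neurons_2. Those 4 libraries lay above every other neuronal library, and the Orexin+ sub-cluster had the lowest mean, 8.30 CPM.

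The AVasopressin neurons led for Kcnc2, a fast subunit, and for Kcnh8. Kcnc2 had 1472, 1669, 1589 and 1561 CPM there, 869 CPM on average in NPY/AgRP neurons and 35.3 ± 5.76 CPM in CART Neurons_1. Kcnh8 had 704, 651, 517 and 520 CPM in the AVasopressin neurons, 264 CPM in NPY/AgRP, 166 in POMC/CART and 2.28 in somatostatin neurons. In both genes the AVasopressin libraries overlapped no other sub-cluster, whereas NPY/AgRP overlapped the next in order.

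Somatostatin neurons led for Kcnq5, Kcnd3 and Kcnh3. Kcnq5 had 2490 ± 174 CPM there, 1134 in Glutamatergic Neurons_3 and 104 in the Orexin+ sub-cluster. Kcnd3 had 504 ± 40.0 CPM there and 383 in oxytocin and vasopressin neurons, and both stood apart from the other 10 sub-clusters, led by Glutamatergic Neurons_3 at 190 CPM. Kcnh3, an elk-type subunit that was near its lowest counts elsewhere, had 13.9, 37.9, 7.08 and 37.6 CPM there, from 49 UMIs, and 2.85 CPM in the next sub-cluster.

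The Orexin+ sub-cluster led for Kcnd2 (6842 ± 1085 CPM, next 3622), Kcnb2 (2655 ± 295, next 1789) and Kcnh5 (347 ± 31.4, next 177), and its libraries overlapped none of the others in these genes. It had the lowest means of Kcnq3 (109 CPM) and Kcnq5 (104 CPM), while Kcnq3 was highest in Glutamatergic Neurons_2 (1225 ± 90.4 CPM).

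Kcna1, a Kv1 subunit, was the channel gene called by genotype, and it was lower in TRα1+m oligodendrocytes. Kcna1 (ENSMUSG00000047976, chr6:126640397-126646384 on GRCm38) had 207 and 165 CPM in the 2 WT oligodendrocyte libraries and 42.5 and 33.3 CPM in the 2 TRα1+m libraries, from 537, 448, 115 and 84 UMIs. Both WT libraries lay far above both TRα1+m libraries. The means were 186 ± 29.8 and 37.9 ± 6.53 CPM (SD, n = 2), 4.91-fold higher in WT, and the log2 fold change was -2.23 (SE 0.22, edgeR quasi-likelihood test with Benjamini-Hochberg adjusted p = 0.0462). It was the 1 member called of 20 tested, against 13 of 12630 genes (0.103%), and DESeq2 also called it alone, of 29 members (0.336% of genes).

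**Figure D2:**
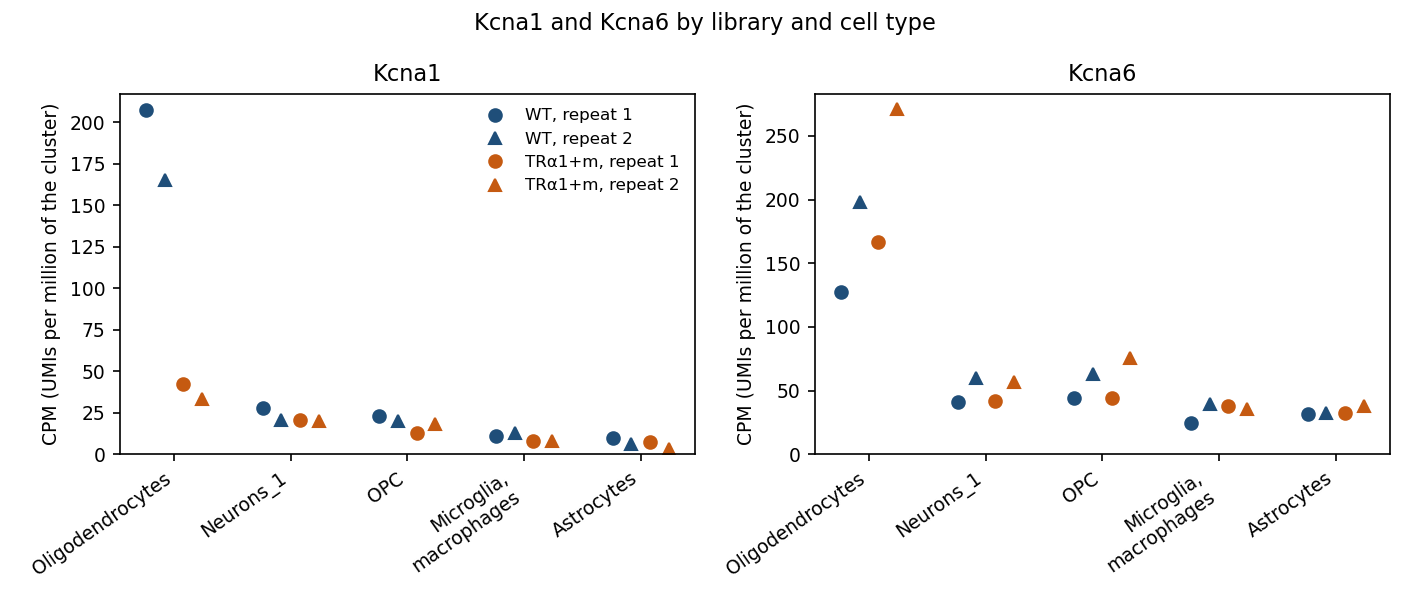
Kcna1 (left) and Kcna6 (right) in each library by main cluster, in CPM of the cluster. Blue is WT, orange TRα1+m, circles repeat 1 and triangles repeat 2. Kcna1 in oligodendrocytes was at 165 CPM or more in WT and at 42.5 CPM or less in TRα1+m, while Kcna6, the neighboring gene, was higher in the second repeat of both genotypes.

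The share of oligodendrocyte nuclei with a Kcna1 UMI followed the same order. It was 26.2% (95% exact binomial interval 24.1 to 28.4) and 25.8% (23.5 to 28.2) in WT and 5.88% (4.80 to 7.11) and 5.31% (4.20 to 6.61) in TRα1+m. With each nucleus thinned to 1000 UMIs, leaving out 75, 12, 64 and 11 shallower nuclei, the shares were 18.1%, 14.7%, 3.58% and 2.85%. In microglia and macrophages, which served as the background, 1.18% to 2.35% of nuclei had a UMI, at medians of 1367 to 1617.5 UMIs per nucleus against 1493 to 1811.5 in oligodendrocytes. The intervals cover counting error only.

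In the other cell types Kcna1 was lower and its genotypes lay closer together. Neurons_1 had 27.8 and 20.7 CPM in WT and 20.9 and 19.9 in TRα1+m (log2 -0.31, SE 0.21, edgeR adjusted p = 1.0), and the groups overlapped. OPCs had 22.9, 20.4, 13.0 and 18.3 CPM, and astrocytes 10.2, 6.37, 7.68 and 3.05 CPM in the same order. In OPCs both TRα1+m libraries lay below both WT libraries, whereas in astrocytes the groups overlapped. TRα1+m was the lower in both repeats in Neurons_1, OPCs and astrocytes alike. The clusters are parts of the same libraries, so they do not replicate one another. Microglia and macrophages had 9.93 ± 2.39 CPM from 29 UMIs, and Kcna1 did not pass the filter there. WT oligodendrocytes had at least 165 CPM, while no library of the other main clusters tested was above 27.8 CPM.

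The genotype difference of Kcna1 was itself compared between cell types, with terms for library. It was larger in oligodendrocytes than in Neurons_1 by -1.96 on the log2 scale (SE 0.18, edgeR adjusted p = 0.00165), the 1 of 28 members called (0.182% of all genes). Against OPCs it was -1.67 (SE 0.32, adjusted p = 0.0317), the 1 of 22 members called (0.403%). Against astrocytes it was -1.64 (SE 0.34, adjusted p = 0.104; 0 of 23 members, 0.327%) and against microglia and macrophages -1.61 (SE 0.52, adjusted p = 0.597; 0 of 22 members, 0.16%), neither of which passed. Without the library terms the adjusted p was 0.176 against Neurons_1 and 0.459 against OPCs, and without TRα1+m repeat 2 the difference from OPCs was -1.32 (adjusted p = 0.225).

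The call for Kcna1 was lost when either WT library was left out, while its log2 fold change stayed similar. It was -2.03 without WT repeat 1 and -2.40 without WT repeat 2. These fits leave 1 WT library, and over all genes they also made fewer calls than the main fit. With equal numbers of nuclei the log2 fold change was -2.26 (edgeR adjusted p = 0.0520). With 2 libraries against 2, an exact permutation of a single value cannot go below p = 0.333. Mitochondrial UMIs were 2.31% and 2.44% of the oligodendrocyte total in WT and 1.97% and 1.79% in TRα1+m, and the neuronal markers summed to 1112, 1040, 1019 and 678 CPM there. Their part in the result was not tested.

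No other oligodendrocyte member was called. The median log2 fold change of the 20 was -0.16, with 14 lower in TRα1+m and 6 higher, against 0.01 over all genes tested. That balance rested on single libraries: without TRα1+m repeat 2 the median was 0.08, with 15 of 21 members higher, and without TRα1+m repeat 1 it was -0.59. Kcnc1 had 42.8 and 37.2 CPM in WT and 28.1 and 24.6 in TRα1+m (log2 -0.54, SE 0.22, unadjusted p = 0.0484, edgeR adjusted p = 0.930). Kcna2 had 38.6 and 40.2 CPM in WT and 51.0 and 51.5 in TRα1+m (log2 0.45, SE 0.19, adjusted p = 0.957). In both genes the genotypes did not overlap, with Kcnc1 below and Kcna2 above WT. Of the 20 members 7 did not overlap, 5 of them lower in TRα1+m. No share over all genes is given for this count, so nothing is read from it. A separation of 2 libraries against 2 cannot go below p = 0.333 in an exact permutation. Kcnh8 had 10.8, 7.002, 6.28 and 3.96 CPM (log2 -0.72, SE 0.45, adjusted p = 0.999).

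Kcna6 rose in TRα1+m oligodendrocytes only in the fit with the repeat as a block. It had 128 and 166 CPM in WT and TRα1+m of repeat 1 and 198 and 271 CPM in repeat 2, so the mutant was the higher of each pair while the groups overlapped. The log2 fold change was 0.50 (SE 0.31, edgeR adjusted p = 0.999) without the block and 0.49 (SE 0.15, adjusted p = 0.04997) with it, where 2 of 20 members and 4.35% of all genes were called. The share of nuclei with a Kcna6 UMI was 17.3% and 30.2% in WT and 22.2% and 37.0% in TRα1+m, against 3.64% to 6.41% in microglia and macrophages.

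**Figure D3:**
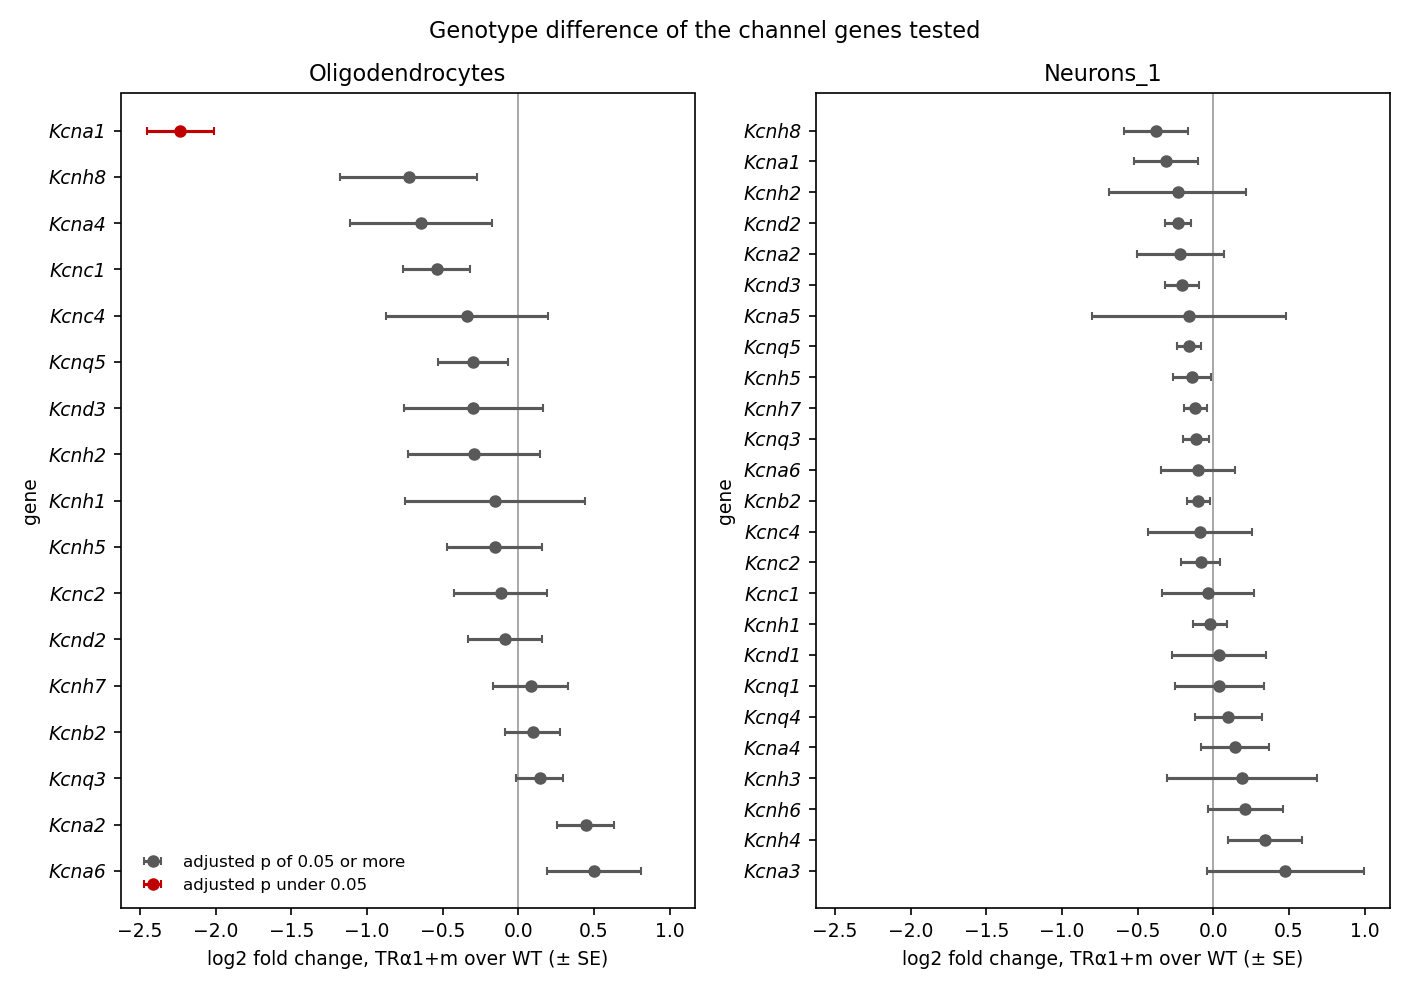
Log2 fold change of TRα1+m over WT, ± SE, for 17 of the channel genes tested in oligodendrocytes (left) and 25 of those tested in Neurons_1 (right), from edgeR with 2 libraries per genotype. Red marks an adjusted p under 0.05. Kcna1, at -2.23, lies apart from the other oligodendrocyte members, and the plotted neuronal members lie between -0.38 and 0.48.

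Neurons_1 gave no called member. Of 28 tested, 0 passed (0.0% of 19926 genes), 1 had an unadjusted p under 0.05, and DESeq2 called 0 members and 1 gene (0.00363%). With the block 0 of 28 passed (0.01%). The median log2 fold change of the members was -0.09, with 20 lower and 8 higher, against 0.01 over all genes. It turned to 0.09 without WT repeat 2 and to 0.05 without TRα1+m repeat 1, with 15 of 28 higher in each, and was -0.15 without WT repeat 1 and -0.21 without TRα1+m repeat 2. The smallest p belonged to Kcnd2, at 2358 and 2404 CPM in WT and 2222 and 2010 in TRα1+m (log2 -0.23, SE 0.09, unadjusted p = 0.0479, adjusted p = 1.0). Kcnq5 had 733 and 745 CPM in WT and 698 and 687 in TRα1+m (log2 -0.16, SE 0.08). Kcnd3 had 165, 162, 138 and 158 CPM (log2 -0.21, SE 0.11), Kcnh7 696, 728, 676 and 696 CPM (log2 -0.12, SE 0.08). In Kcnd2, Kcnq5, Kcnd3 and Kcnh7 both mutant libraries lay below both WT libraries, in Kcnh7 by the narrowest margin. These genes were named for their small p. Of the 28 members 8 did not overlap between genotypes, 6 of them lower in TRα1+m. No share over all genes is given for this count, so nothing is read from it. For such a separation of 2 libraries against 2 an exact permutation cannot go below p = 0.333. Kcnh8 had 77.2, 57.9, 59.6 and 49.0 CPM (log2 -0.38, SE 0.21), with overlap.

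Within the neuronal sub-clusters edgeR called 0 members without the block, with 0 to 3 members each at an unadjusted p under 0.05. All genes gave 0.0% called there, except 0.00865% in CART Neurons_1, 0.0119% in NPY/AgRP and 0.043% in Orexin+. DESeq2 called 0 members, against 0.00475%, 0.00525% and 0.00548% of genes in those sub-clusters and 0.0% in the others. The fit with the block made 5 calls, of 3 different members. None was in AVasopressin (0.364% of genes), CART Neurons_1 (0.389%), Glutamatergic Neurons_1 (0.101%), Glutamatergic Neurons_3 (0.0351%), MCH (0.896%), Oxytocin+, AVP (0.292%) or somatostatin neurons (0.031%). Kcnd2, which encodes an A-type subunit of cell bodies and dendrites, gave 3 of the 5. It had 7768 and 7765 CPM in WT and 6153 and 5680 in TRα1+m in the Orexin+ sub-cluster (blocked log2 -0.44, edgeR adjusted p = 0.00332; 0.821 without the block; 0.588% of genes called with the block). It had 2571 and 2743 against 2350 and 2237 CPM in GABA neurons (blocked log2 -0.27, adjusted p = 0.00152; 0.684%) and 2749 and 2725 against 2348 and 2325 CPM in Glutamatergic Neurons_2 (blocked log2 -0.28, adjusted p = 0.00252; 0.678%). In all 3 the mutant libraries lay below the WT libraries. The genotypes did not overlap in 9 of 14 members tested in Orexin+, 5 of 27 in GABA neurons and 8 of 27 in Glutamatergic Neurons_2. No share over all genes is given for these counts either, so nothing is read from them. Kcnd2 was lower in TRα1+m in 11 of 12 sub-clusters, in 9 of them in both repeats, with log2 fold changes from -0.44 to 0.06, highest in NPY/AgRP neurons. The sub-clusters are parts of the same libraries, so they do not replicate one another, and no share over all genes is given for this count.

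**Figure D4:**
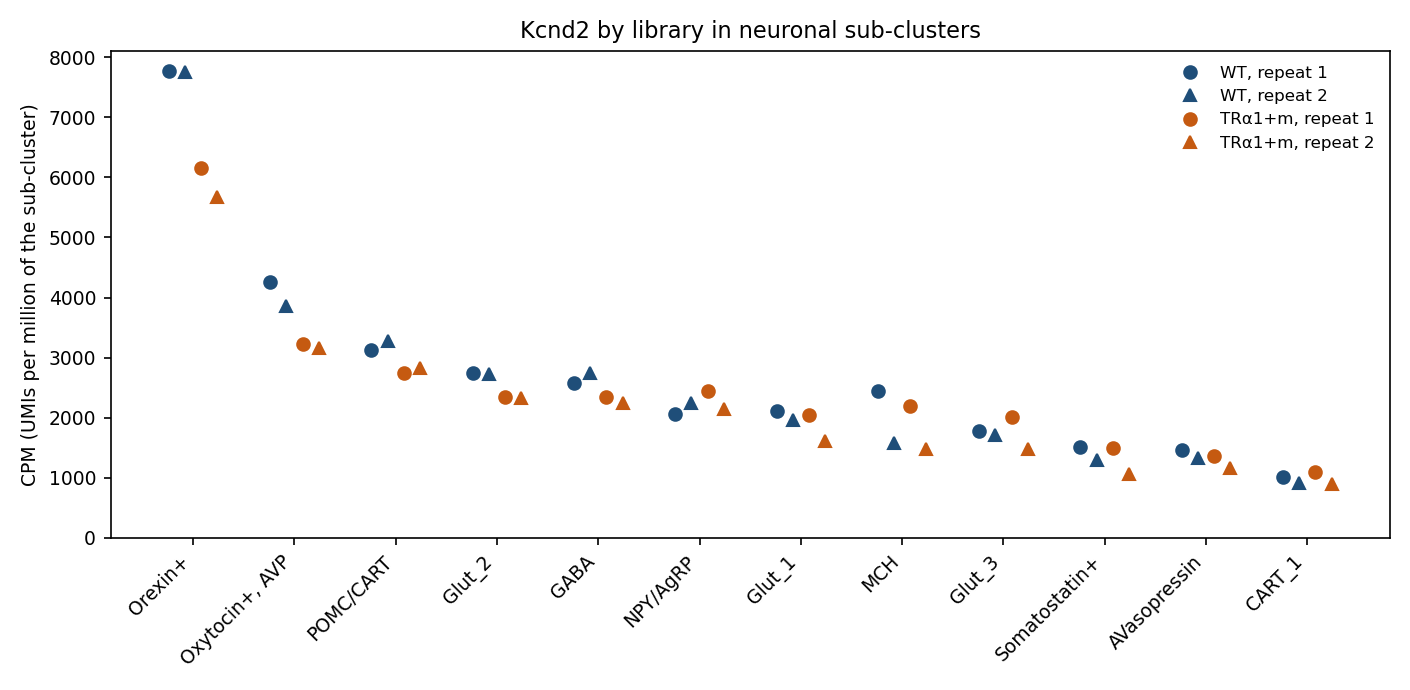
Kcnd2 in each library of the 12 neuronal sub-clusters tested, in CPM of the sub-cluster, ordered by mean level. Blue is WT, orange TRα1+m, circles repeat 1 and triangles repeat 2. The Orexin+ sub-cluster has the highest level and the mutant libraries at 6153 CPM or less, and in the NPY/AgRP sub-cluster the genotypes overlap.

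The other 2 blocked calls were Kcnq3 and Kcnh8. Kcnq3 had 832 and 862 CPM in WT and 466 and 596 in TRα1+m NPY/AgRP neurons (log2 -0.70, adjusted p = 0.694; blocked -0.71, adjusted p = 0.0330; 0.251% of genes). It did not pass in other sub-clusters, and in the Orexin+ sub-cluster its values were 62.8 and 82.4 CPM in WT and 186 and 106 in TRα1+m. Kcnh8 had 224 and 182 CPM in WT and 118 and 141 in TRα1+m POMC/CART neurons (blocked log2 -0.65, adjusted p = 0.0147; 0.51% of genes; 1.0 without the block). Among the 9 sub-clusters tested, all parts of the same libraries, Kcnh8 was lower in TRα1+m in 7, in 6 of them in both repeats. Its log2 fold changes ran from -0.67 to 0.28. The highest was in NPY/AgRP neurons, with 276, 196, 320 and 263 CPM. The blocked fit leaves 1 residual degree of freedom per gene.

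In the remaining glia no member was called without the block. Astrocytes gave 0 of 23 (0.0%; 3 at an unadjusted p under 0.05), OPCs 0 of 20 (0.0%; 1) and microglia and macrophages 0 of 16 (0.0%; 1), and DESeq2 called 0 members in each (0.00427%, 0.00487% and 0.0% of genes). The medians were -0.10, -0.07 and -0.11 on the log2 scale, and they were 0.0035 in astrocytes without TRα1+m repeat 2, -0.00015 in OPCs without WT repeat 2, and 0.02 and 0.0068 in microglia and macrophages without WT repeat 2 and without TRα1+m repeat 2. With the block 0 microglia members passed (0.335% of genes), while Kcnq3 rose in TRα1+m astrocytes, from 276 and 345 CPM to 466 and 400 (log2 0.50, SE 0.12, edgeR adjusted p = 0.0125; 1 of 23 members, 1.28% of genes). Kcnc2 rose in OPCs, from 77.6 and 56.8 CPM to 106 and 111 (log2 0.66, SE 0.18, adjusted p = 0.0398; 1 of 20 members, 0.569% of genes). In both genes the mutant libraries lay above the WT libraries. The genotypes did not overlap in 6 of 23 members in astrocytes and in 6 of 20 in OPCs. No share over all genes is given for these counts, so nothing is read from them. Summed neuronal markers were 904, 909, 915 and 759 CPM in OPCs, and their part in the Kcnc2 result was not tested.

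The RNA of genes whose proteins work with these channels, and of other potassium channel genes, was read from 9 fixed gene lists. None of their genes was called in a main cluster: Neurons_1 had 59 tested, astrocytes 44, oligodendrocytes 38, OPCs 34 and microglia and macrophages 31. Kcnab1, a cytoplasmic Kv1 partner, had 204 and 260 CPM in WT and 262 and 299 in TRα1+m oligodendrocytes (log2 0.35, SE 0.19). The 8 axonal Kv1 partners, such as Cntnap2 and Cntn2, summed to 2345, 2604, 2440 and 2507 CPM there, with a median log2 fold change of -0.07 beside the -2.23 of Kcna1. With the repeat as a block 6 calls were made, all lower in TRα1+m, where the share over all genes was 4.35% in oligodendrocytes (1 of 38 list genes called), 1.28% in astrocytes (1 of 44), 0.569% in OPCs (3 of 34) and 0.335% in microglia and macrophages (1 of 31). They were the inward rectifier Kcnj10 in oligodendrocytes (136, 133, 84.3 and 77.2 CPM, adjusted p = 0.00146) and in astrocytes (184, 215, 119 and 139 CPM, adjusted p = 0.000587), the A-type partners Kcnip3 in OPCs (adjusted p = 0.0150) and Dpp6 in microglia and macrophages (adjusted p = 0.00197), and the calcium- and sodium-activated channel genes Kcnn2 (adjusted p = 0.00253) and Kcnt2 (adjusted p = 0.0438) in OPCs. The 4 KCNE genes in the files passed the filter nowhere, the 10 silent subunits had 2 genes tested in oligodendrocytes and 10 in Neurons_1, and the Kv2 partner Amigo1 was at 9.50 to 14.4 CPM in oligodendrocytes.

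More members were called between the repeats than between the genotypes in Neurons_1. The counts were 13 and 0 with both terms in the fit. With either term alone they were 10 (4198 of 19926 genes) and 0. In oligodendrocytes the order depended on the fit: 3 and 2 with both terms, 0 (344 of 12630 genes) and 1 with either alone. The repeat fits below had both terms, which leaves 1 residual degree of freedom per gene. In Neurons_1, 13 of 28 members differed between repeat 2 and repeat 1 (25.2% of all genes). Higher in repeat 2 were 11 (13.2% of all genes), among them Kcna2, Kcna4, Kcna5, Kcna6, Kcnc1, Kcnc4, Kcnd1, Kcnh2 and Kcnh3. Kcna5 had 2.29 and 2.24 CPM in repeat 1 and 6.24 and 5.81 in repeat 2 (log2 1.37, SE 0.18, edgeR adjusted p = 0.00107). Kcnc1 had 72.3 and 64.6 CPM in repeat 1 and 101 and 113 in repeat 2 (log2 0.61, SE 0.09, adjusted p = 0.00214). The libraries of the repeats did not overlap in either gene. Lower in repeat 2 were Kcnc2 (log2 -0.22, adjusted p = 0.0124) and Kcnh8 (log2 -0.39, adjusted p = 0.00819).

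The members that rose in repeat 2 had a shorter median span than the other members. It was 18.0 kb, against 280 kb for the 15 members that did not pass and 286 kb for the 2 that fell. Short members were also among the 15, such as Kcna3 (1.90 kb), Kcna1 (5.99 kb), Kcnh4 (19.6 kb) and Kcnh6 (26.4 kb). Of these, Kcna1 had a log2 fold change of -0.29. Over all genes tested the medians were 17.4 kb for those that rose, 21.7 kb for those that fell and 22.9 kb for the rest. Median UMIs per Neurons_1 nucleus were 3989.5 and 3797 in repeat 1 and 5227 and 4833.5 in repeat 2. Their part in the result was not tested.

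**Figure D5:**
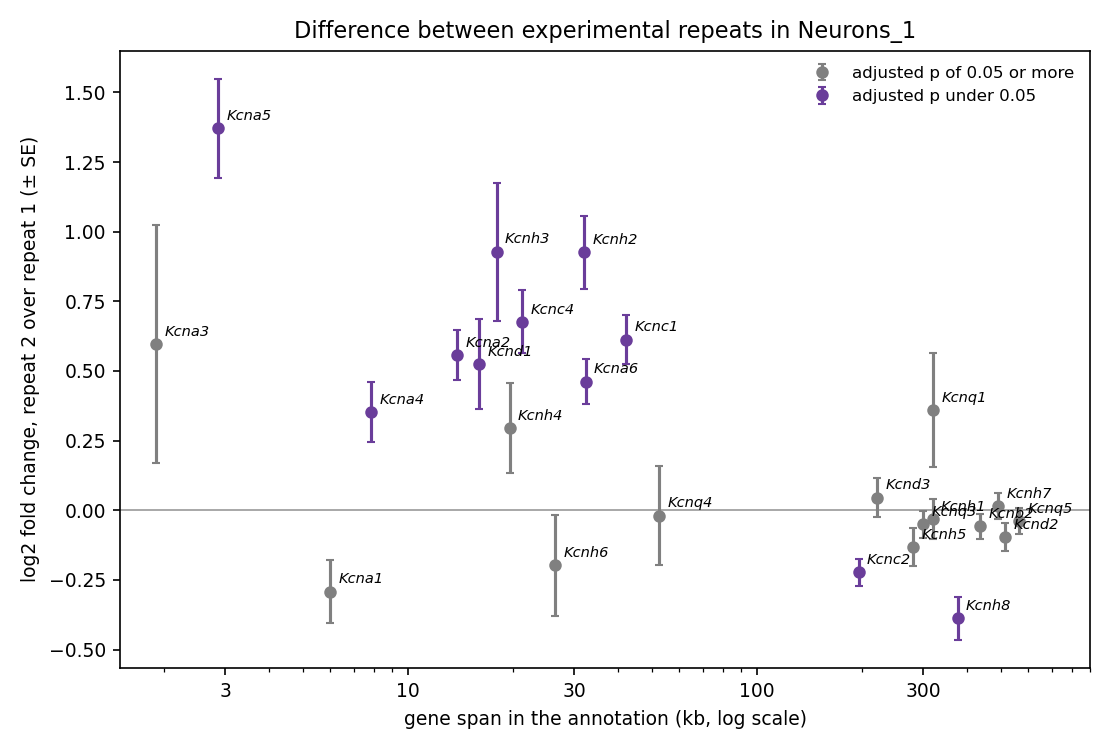
Log2 fold change of repeat 2 over repeat 1 in Neurons_1, ± SE, against the gene span in kb on a log axis, for 25 of the channel genes tested. Purple marks an adjusted p under 0.05. The 9 plotted members that rose all span 42.2 kb or less, and the 2 that fell both span over 100 kb. Members not plotted are left out of these bounds, and some short members did not pass.

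In oligodendrocytes 3 of 20 members differed between repeats (12.4% of all genes). Kcna6 rose (log2 0.66, SE 0.15, edgeR adjusted p = 0.00115), while Kcnh1 fell, from 13.1 and 12.2 CPM to 6.27 and 4.36 (log2 -1.26, SE 0.36, adjusted p = 0.0109). Kcna1 was lower in repeat 2 within each genotype and did not pass. Astrocytes gave 4 of 23 (20.6%): Kcna1 (log2 -0.96, adjusted p = 0.0167), Kcnc1 and Kcnc2 fell and Kcnd1 rose. OPCs gave Kcna6, higher (log2 0.56, adjusted p = 0.0454; 1 of 20, 11.4%), and microglia and macrophages gave Kcnh8, higher (log2 1.24, adjusted p = 0.00677; 1 of 16, 6.27%), which rested mainly on WT repeat 2 at 79.2 CPM against 22.2 to 35.7 CPM in the other libraries. DESeq2 called 0 members in oligodendrocytes (1.47% of genes), astrocytes (2.74%), OPCs (0.599%) or microglia and macrophages (0.531%). The repeat fits with a library left out had no genotype term and left 1 library in a repeat. Their counts are not comparable with those above and are not given.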

How the data were processed

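Nuclei from frozen hypothalamus were pooled from 3 mice per library. The authors aligned the reads with Cell Ranger 5.0.1 to mm10 with introns included, removed poor nuclei and predicted doublets, clustered and annotated the nuclei, and deposited matrices of raw UMI counts per gene and nucleus with the annotation of 56386 nuclei. Nuclei without an annotation were not used. Here the deposited counts were summed per library and cluster, for clusters of at least 10 nuclei in every library. CPM used the plain total of those sums. Genotype was tested with edgeR 4.0.16 (filterByExpr, TMM, robust glmQLFit and glmQLFTest) in R 4.3.3, two-sided, with Benjamini-Hochberg adjustment over all genes tested in a cluster and a threshold of 0.05. This fit had genotype only and 2 residual degrees of freedom. The test gives no SE, so each SE was derived from its F statistic. It is the size of the log2 fold change divided by the square root of F. Differences between cell types were fitted with library terms, and repeats with genotype as a covariate, except in the fits with a library left out. Alternatives were the repeat as a block, DESeq2 1.42.0, RLE factors, no filter, bias-adjusted deviances, equal numbers of nuclei, and leaving out each library.

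The study made 1 library of each genotype per repeat, and over all genes the difference between repeats correlated between genotypes with r from 0.393 (microglia and macrophages) to 0.668 (astrocytes) in the main clusters, so same-numbered libraries were treated as pairs in the blocked fit. The study compared nuclei by rank sum, which takes nuclei as replicates and was not used. On simulated data with 100 genes changed at each size, 77% of genes at a log2 change of 1 and 99% at 2 were recovered in oligodendrocytes (12592 genes tested). In Neurons_1 82% and 100% were recovered (19854 genes tested). The simulated counts had the same dispersion for every gene and no difference between repeats, and only well-expressed genes were changed. These rates therefore check the fit and do not give its power on the real counts. The members and gene lists were chosen with earlier results of these data known. Named for genotype were all members called with or without the block and the 5 with the smallest p in oligodendrocytes and in Neurons_1. Some members enter the fits and counts but are not reported here or plotted. Annotated antisense genes overlap, among others, Kcna3, Kcna6, Kcnd3, Kcnh1, Kcnh2, Kcnh3, Kcnh7, Kcnq1 and Kcnq3, and whether the counting used strand is not given in the sources used here.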

Additional observations from a re-analysis of the deposited data

Results flagged for a closer look

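The genotype effect on Kcna1 differed between oligodendrocytes and both Neurons_1 and OPCs, by a test of the difference itself. It was -1.96 on the log2 scale in oligodendrocytes minus Neurons_1 (edgeR adjusted p = 0.00165) and -1.67 in oligodendrocytes minus OPCs (adjusted p = 0.0317). The differences from astrocytes and from microglia and macrophages did not pass. Without the library terms those from Neurons_1 and OPCs did not pass either (values above). Kcna1 was lower in TRα1+m in 2 of 2 repeats in oligodendrocytes, in Neurons_1 and in OPCs, which are parts of the same libraries and do not replicate one another.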

How the results depend on the processing

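None of the named genes reversed its direction, but the median over the members changed sign when 1 library was left out in 4 main clusters (values above). With the replicate block the count of members called by genotype went from 1 to 2 in oligodendrocytes, from 0 to 1 in astrocytes, from 0 to 1 in OPCs and from 0 to 5 calls in neuronal sub-clusters. It added the 6 calls of genes from the fixed lists given above and changed no other call of a member. With equal numbers of nuclei the oligodendrocyte count was 0 (8 of 12383 genes). The member higher in microglia and macrophages than in Neurons_1 was also lost (0), as with TMM-scaled totals (0). Without the filter the counts were 1 in sub-clusters (Kcnq3 in NPY/AgRP neurons) and 1 for the difference from astrocytes. For repeats they were 0 in OPCs (1116 of 20546 genes) and 14 in Neurons_1 (6381 of 27537). Without library terms the differences from Neurons_1 and OPCs gave 0. No share over all genes is given for this sub-cluster count or for these differences. Repeat counts without the genotype term were 0 in oligodendrocytes (344 of 12630 genes), OPCs (753 of 11248) and microglia (370 of 10451). They were 1 in astrocytes (1512 of 14797) and 10 in Neurons_1 (4198 of 19926). With DESeq2 they were 0 in the 4 glial clusters and 9 in Neurons_1 (2671 of 27537). RLE factors gave 2 in oligodendrocytes (1257 of 12630). Leaving out 1 library changed counts of members called, for genotype, for the difference from OPCs and for repeats. The call for Kcna1 was lost when either WT library was left out, as given above. In these fits the lone library of an arm is assumed to vary like the others, so their counts are not given. Those of the repeats also had no genotype term, so they differ from the main fits in model as well as in libraries. The other causes were not tested. Of the values for single genes, 216 were classed as the same, 10 as stronger and 6 as weaker. Most of these genes had no call to keep. Of the headline values, 109 were classed as the same and 39 as moved. Counts as low as those of Kcna3 (84 UMIs) and Kcna10 (21) allow no comparison.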

Other observations

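The cluster Neurons_2 entered no comparison, since 852 of its nuclei came from the TRα1+m library of repeat 2 and 5, 1 and 6 from the others. In that library it had 5940 CPM of Kcnd2, 4323 of Kcnb2, 2407 of Kcnh7, 2091 of Kcnq5 and 106 of Kcna4, with no replicate.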
